A study of Mus musculus with 12 samples.

Results

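Introns of at most 120 nt were followed through depletion and re-expression of the splicing factor Puf60 in N2A cells, a mouse neuroblastoma line. An intron belonged to the set when its length in the deposited splicing table was 120 nt or less and its inclusion plus exclusion reads numbered at least 10 in each of the 12 libraries. Of 13376 introns of that length in the table, 8317 qualified, in 3312 host genes; 92829 introns of any length and 222055 of the table's 401633 splicing events had as many reads. The rule used length and read numbers and no retention value. Both lines carried a doxycycline-inducible, siRNA-resistant Puf60 cDNA with an N-terminal 3xFlag tag, placed at the Flp-In site of N2A cells that express rtTA3, with exon 5 of Puf60 in the line called pEx5 and without it in the line called mEx5. Control cells of each line received a non-targeting siRNA, knockdown cells an siRNA against Puf60, and induced cells the Puf60 siRNA with doxycycline. Cells were collected at 48 h of a 15 nM siRNA transfection, and the drug was present at 2 µg/ml for the last 24 h. This gave 6 groups of 2 polyadenylated RNA libraries, A and B. Doxycycline was never combined with the non-targeting siRNA, so drug and cDNA cannot be told apart, and the lines may differ in more than their cDNA. One text field of the induced libraries calls them uninduced; the treatment field was followed. The design text calls A and B biological duplicates without saying that they were separate cultures or transfections, so the spread behind each p-value may be technical.

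An intron is removed once the spliceosome has recognised its 5′ splice site, its branch point and the polypyrimidine tract with the AG at its 3′ end. In most mammalian genes these signals are paired across the exon, but across very short introns they are paired over the intron itself, which leaves little room between branch point, tract and AG. Puf60 resembles U2AF2 in its RNA-binding domains, and both proteins bind pyrimidine-rich tracts and help U2 snRNP join the branch point. An intron left in a polyadenylated transcript can hold that transcript in the nucleus or, by a premature stop codon, send it to nonsense-mediated decay. Retention was measured as PSI, percent spliced in, which for an intron is the percentage of reads at its junctions that read into the intron and not across the joined exons.

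The sequences of the introns around which the results turn are shown first, since Puf60 and U2AF act at the 3′ ends of introns. Binding of either protein to these introns was not measured. They are printed 5′ to 3′ and were read from GENCODE M21 transcripts whose exon runs through the intron, with GRCm38 positions. Capitals mark the first and last 2 bases and the longest unbroken run of C and T within the last 40 bases before the AG. The first 5 were retained more on knockdown and the last 4 less.
Polr3gl (chr3:96579912-96580015, minus strand): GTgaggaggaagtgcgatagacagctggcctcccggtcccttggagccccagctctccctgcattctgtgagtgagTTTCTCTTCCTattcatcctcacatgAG
Ilvbl (chr10:78583535-78583629, plus strand): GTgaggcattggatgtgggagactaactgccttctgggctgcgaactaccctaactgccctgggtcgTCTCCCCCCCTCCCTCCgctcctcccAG
Eme2 (chr17:24892684-24892754, minus strand): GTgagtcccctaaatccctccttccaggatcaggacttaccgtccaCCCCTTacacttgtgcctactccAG
Cenpt (chr8:105849714-105849832, minus strand): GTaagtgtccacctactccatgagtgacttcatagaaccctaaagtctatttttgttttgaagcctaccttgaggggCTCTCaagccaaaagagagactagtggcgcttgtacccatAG
3110043O21Rik (chr4:35193069-35193184, minus strand): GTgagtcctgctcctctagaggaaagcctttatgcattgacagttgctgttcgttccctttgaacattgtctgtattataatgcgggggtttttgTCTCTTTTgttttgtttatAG
Lrrc45 (chr11:120718554-120718649, plus strand): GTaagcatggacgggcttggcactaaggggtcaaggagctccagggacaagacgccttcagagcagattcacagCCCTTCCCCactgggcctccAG
Llgl1 (chr11:60713042-60713128, plus strand): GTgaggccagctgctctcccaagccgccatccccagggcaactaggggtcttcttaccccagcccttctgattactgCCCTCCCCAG
Rtel1 (chr2:181356259-181356357, plus strand): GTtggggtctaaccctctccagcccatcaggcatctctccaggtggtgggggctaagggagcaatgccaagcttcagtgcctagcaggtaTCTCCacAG
Mmp23 (chr4:155652362-155652448, minus strand): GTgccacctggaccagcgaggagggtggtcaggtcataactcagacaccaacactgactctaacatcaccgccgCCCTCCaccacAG
All 9 begin with GT and end with AG. The run of C and T had 17 bases in Ilvbl and 11 in Polr3gl, but 5 in Cenpt. Pyrimidines made up 92.9% of the 28 bases before the AG in Ilvbl and 42.9% in Cenpt. The same share was 78.6% in Llgl1 and 57.1% in Rtel1. Their runs had 8 and 5 bases, and that of Lrrc45 had 9. A broken tract, with a run of 5 bases, therefore occurred in each direction. The longest runs of these 9 introns were those of Ilvbl and Polr3gl, which gained.

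The libraries held between 22908930 and 41494994 exon-exon junction reads over the introns of the table. The authors' deposited table lists Puf60 at 107.44 RPKM (a read density scaled by transcript length and library size) in pEx5 control, 22.05 in knockdown and 246.09 in induction, and at 103.47, 25.16 and 202.07 in mEx5. Of the neuroblastoma markers in the authors' deposited table, Hand2 stood at 185 to 217 RPKM and Tubb3 at 296 to 444, while Th reached at most 0.62 and the neurofilament gene Nefl 0.04. Fibroblast and microglial markers reached at most 0.59 RPKM in the authors' deposited table.

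Most short introns were spliced almost completely in every group. Lengths ran from 33 to 120 nt with a median of 91 nt, and 1658 host genes held more than 1 of the introns, up to 31 in a single gene. The median of the mean PSI over libraries was 0.86%, 4438 of 8317 introns (53.4%) lay under 1%, and 377 were at 0 in each of the 12 libraries. A mean PSI of 10% or more was reached by 688 introns and of over 50% by 65. With a median of 158 reads per intron and library, 0 inclusion reads would still allow a PSI of up to 1.90%, counting 3 reads as the limit and counting error alone. Retention was highest in the shortest class of the set. In control libraries the median PSI was 1.84 to 2.14% for the 1529 introns of 80 nt or less, against 0.27 to 0.34% for the 1015 introns of 111 to 120 nt. The share of introns with a PSI of at least 10% was 12.1 to 14.1% in the control libraries for the shortest class and 6.40 to 7.59% for the longest. Between them, introns of 81 to 90 nt had 5.18 to 6.84%, so this share did not fall steadily with length. These comparisons of length classes are descriptions of the same libraries and carry no test.

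The mEx5 induced libraries stood above the other 10 at every length up to 120 nt. Among introns of 80 nt or less, 20.1 and 21.2% had a PSI of at least 10% in those 2 libraries, against 12.1 to 17.3% in the other 10. For 81 to 90 nt the shares were 10.0 and 11% against 5.18 to 7.38%, for 91 to 100 nt 9.41 and 9.73% against 5.24 to 6.81%, and for 101 to 110 nt 8.92 and 9.82% against 5.02 to 6.82%. For 111 to 120 nt they were 10.2 and 10.4% against 6.40 to 8.57%. Over all short introns 11.6 and 12.3% reached that level against 6.77 to 9.03%, and the mean PSI was 4.47 and 4.62% against 2.99 to 3.65%. Restricted to the 4299 introns with at least 100 reads in every library, the shares were 6.14 and 6.26% against 3.30 to 4.82%. Introns of 121 to 500 nt showed 9.60 and 10.1% against 6.43 to 8.57%, whereas the induced mEx5 libraries lay within the range of the others for introns of over 500 nt.

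**Figure D1:**
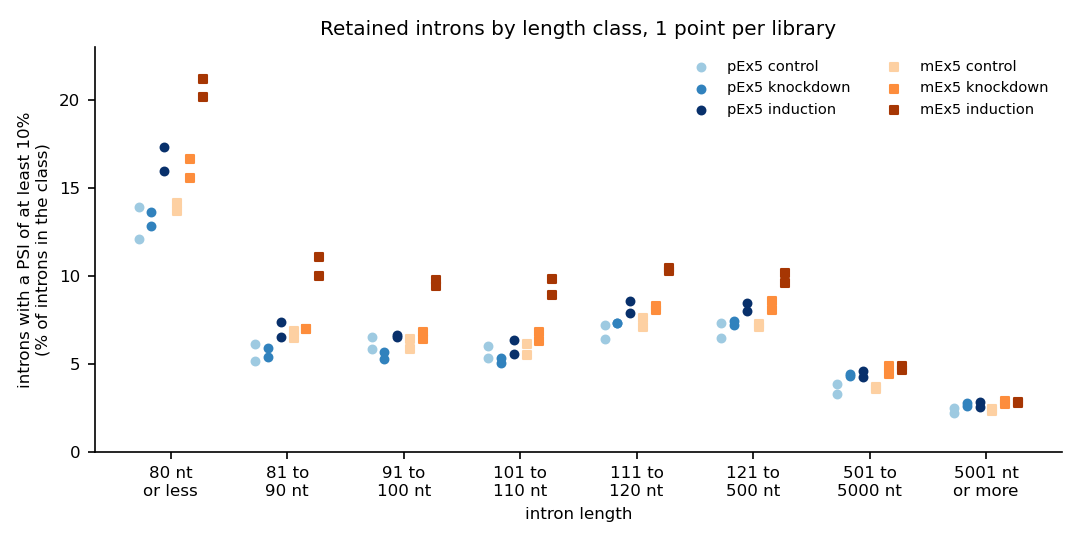
Percentage of introns with a PSI of at least 10% (vertical axis) in each length class (horizontal axis), 1 point per library, circles for pEx5 and squares for mEx5, darker from control to knockdown to induction. The 2 mEx5 induced libraries, at 20.1 and 21.2% for introns of 80 nt or less, stand above the other 10 in each class up to 500 nt.

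Knockdown against control asked which of these introns depend on Puf60, and it raised the retention of 47 short introns and lowered that of 24. The gains measured 10.1 to 33.2 points of PSI, with a median of 14.7, in introns of 64 to 119 nt, and the losses 10.2 to 37.2 points, in introns of 69 to 118 nt. A test was possible for the 1352 short introns, in 771 genes, with a mean PSI of 5 to 95%, and an intron was called at an adjusted p under 0.05 in the limma test with a difference of at least 10 points. The 71 called introns were 5.25% of those tested, against 17.5% of all 22770 events tested, most of which are not introns (5.21% higher and 12.3% lower), and 9.41% of the 7511 tested introns of over 120 nt. By direction, 3.48% of the short introns were higher and 1.78% lower, against 7.39% and 2.02% of the longer introns. The median difference was 0.09 points over the short introns and 1.32 points over the longer ones. Within pEx5 alone 33 short introns were higher and 21 lower (background 15.2% of all events called and 6.94% of longer introns, 5.22% higher and 1.72% lower). Within mEx5 38 were higher and 8 lower (12.9% of all events and 5.75% of longer introns, 4.82% higher and 0.932% lower). Of the 33 and 38 higher introns 17 were shared, of the 21 and 8 lower introns 4 were shared, and none was called in opposite directions in the 2 lines. Without introns whose reads at the 2 edges were unequal, 47 of 922 tested introns were called, and limma without weights, run over every event with enough reads whatever its PSI, called 36 short introns.

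**Figure D2:**
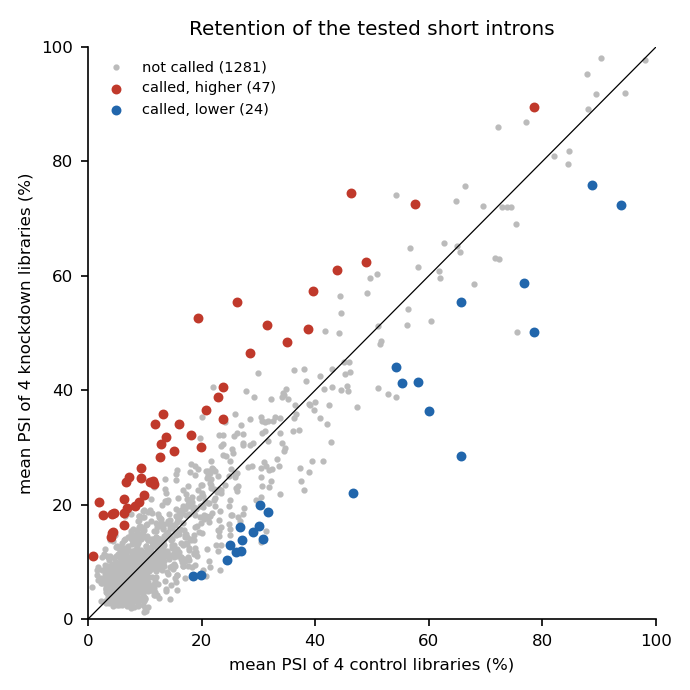
Mean PSI of the 4 control libraries (horizontal axis, %) against that of the 4 knockdown libraries (vertical axis, %) for the 1352 tested short introns, with the diagonal drawn. The 47 introns called higher (red) lie above the diagonal from the lowest control levels on, and the 24 called lower (blue) start from higher control levels.

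The intron of Polr3gl, a subunit of RNA polymerase III, gained most. In it the PSI values for control, knockdown and induction were 27.8 and 21.9%, 41.0 and 37.4%, and 29.6 and 32.6% in pEx5. For Polr3gl in mEx5 they were 15.7 and 12.5%, 57.0 and 75.3%, and 48.0 and 45.8%, from 35 to 95 reads per library. Both knockdown libraries of each line lay above both controls, further apart in mEx5 than in pEx5. The mean difference of the lines was 33.2 points, or 1.48 ± 0.22 (SE) on the logit scale (limma adjusted p = 0.00014). In the 95 nt intron of Ilvbl, which encodes an acetolactate synthase-like protein, pEx5 libraries had 25.8 and 27.3%, 59.4 and 50.5%, and 34.4 and 50.9% (control, knockdown, induction). Ilvbl had 24.1 and 27.5%, 51.0 and 61.1%, and 42.1 and 54.4% in mEx5. Its gain was 29.3 points, or 1.23 ± 0.19 (SE) on the logit scale (limma adjusted p = 0.000197), and knockdown and control libraries did not overlap in either line. For Eme2, a partner of the Mus81 endonuclease, control, knockdown and induced libraries stood at 50 and 49.1%, 78.4 and 79.0%, and 70.2 and 66.7% in pEx5. Eme2 stood at 54.1 and 32.2%, 72.7 and 67.6%, and 41.0 and 80% in mEx5, from 31 to 47 reads. The 71 nt intron gained 28.1 points, or 1.17 ± 0.34 (SE) on the logit scale (limma adjusted p = 0.0174). The mEx5 controls were themselves far apart, and the call was lost without mEx5 control B, mEx5 knockdown A or pEx5 knockdown B, with an adjusted p of up to 0.06 in limma.

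Thoc1 and Cenpt gave gains with less spread. Thoc1 belongs to the THO complex of mRNA export, and in its 83 nt intron the PSI values for control, knockdown and induction were 13.3 and 12.7%, 38.4 and 36.2%, and 30.9 and 32.7% in pEx5. For Thoc1 in mEx5 they were 13.8 and 13.3%, 34.4 and 34.3%, and 18.4 and 29.5%. The gain was 22.5 points, or 1.29 ± 0.13 (SE) on the logit scale (limma adjusted p = 2.65e-06), from 190 to 431 reads per library. Cenpt encodes a centromere protein, and in its 119 nt intron, whose tract is broken, pEx5 libraries had 11.4 and 13.5%, 30.8 and 35.0%, and 17.7 and 22.6% (control, knockdown, induction). Cenpt had 11.5 and 11.1%, 28.6 and 41.7%, and 16.5 and 18.8% in mEx5. Its knockdown libraries lay above control and induced libraries in both lines, with a gain of 22.1 points, or 1.33 ± 0.15 (SE) on the logit scale (limma adjusted p = 1.11e-05). The junction reads at the 2 edges of the Cenpt intron differed (lowest p 2.73e-05 in the authors' deposited table). In the 116 nt intron of 3110043O21Rik, the mouse gene orthologous to human C9orf72, control, knockdown and induced libraries stood at 2.13 and 0.38%, 21.4 and 17.6%, and 2.83 and 3.90% in pEx5. 3110043O21Rik stood at 2.20 and 2.83%, 17 and 26.2%, and 2.16 and 5.66% in mEx5. It was nearly absent from controls and from induced libraries and reached the mean PSI of 5% only through its knockdown libraries, and its knockdown gain was 18.7 points, or 2.37 ± 0.34 (SE) on the logit scale (limma adjusted p = 8.01e-05).

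D6Wsu116e, a member of the WASH complex family of endosomal sorting, has a 79 nt intron that the annotation places in its 5′ UTR; in it the PSI values for control, knockdown and induction were 29.9 and 33.2%, 47.6 and 50.5%, and 39.9 and 40.2% in pEx5. For D6Wsu116e in mEx5 they were 30.6 and 32.5%, 51.5 and 56.1%, and 46.4 and 42.6%. It gained 19.9 points, or 0.83 ± 0.09 (SE) on the logit scale (limma adjusted p = 5.17e-06), with unequal reads at its 2 edges (lowest p 8.63e-18 in the authors' deposited table). In Rnf25, which encodes a RING-type ubiquitin ligase, pEx5 libraries had 8.11 and 16.1%, 23.2 and 33.3%, and 20.4 and 22.3% (control, knockdown, induction). Rnf25 had 13.4 and 17.3%, 34.8 and 36.1%, and 25.2 and 25.3% in mEx5. Knockdown and control libraries of the Rnf25 intron did not overlap in either line, and the gain was 18.1 points, or 1.06 ± 0.21 (SE) on the logit scale (limma adjusted p = 0.00113). Usp53, of the ubiquitin-protease family, had few reads (19 to 34 reads), and control, knockdown and induced libraries stood at 12.7 and 5.66%, 52.9 and 37.5%, and 34.8 and 17.6% in pEx5. Usp53 stood at 22.6 and 23.1%, 25.7 and 20%, and 19.3 and 20% in mEx5. Control and knockdown libraries of Usp53 did not overlap in pEx5, but in mEx5 they did and had almost equal means. The gain of 18 points, a mean of the 2 lines, therefore came almost wholly from pEx5. It was 0.93 ± 0.33 (SE) on the logit scale (limma adjusted p = 0.0459). The gain was called in only 3 of the 12 fits without a library, those without pEx5 induction A, pEx5 induction B or pEx5 knockdown B. In the 71 nt intron of Uckl1, a uridine-cytidine kinase-like gene, the PSI values for control, knockdown and induction were 3.16 and 19.6%, 30.5 and 28.3%, and 36.1 and 40.4% in pEx5. For Uckl1 in mEx5 they were 12.6 and 16.0%, 23.3 and 40.3%, and 37.7 and 26.0%. The pEx5 controls of Uckl1 were far apart, and the gain of 17.8 points, or 0.91 ± 0.29 (SE) on the logit scale (limma adjusted p = 0.0261) was lost without mEx5 control A, mEx5 control B, mEx5 knockdown B or pEx5 knockdown A.

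Ndor1, a flavoprotein that passes electrons to the cytosolic iron-sulphur cluster machinery, carried 3 gains in neighbouring introns. In its 95 nt intron pEx5 libraries had 35.1 and 19.2%, 40.9 and 42.5%, and 30.5 and 46.5% (control, knockdown, induction). Ndor1 had 29.0 and 30.6%, 48.4 and 54.6%, and 41.8 and 54.4% in mEx5. The gain was 18.1 points, or 0.75 ± 0.19 (SE) on the logit scale (limma adjusted p = 0.00868). In the 67 nt intron control, knockdown and induced libraries stood at 33.0 and 40.2%, 47.2 and 55.4%, and 52.7 and 59.7% in pEx5. Ndor1 stood at 38.2 and 43.4%, 46.4 and 53.7%, and 56.3 and 52.5% in mEx5. It gained 12 points, or 0.48 ± 0.15 (SE) on the logit scale (limma adjusted p = 0.0241), a call lost without mEx5 control A, mEx5 knockdown B, pEx5 control A or pEx5 knockdown B. In the 105 nt intron the PSI values for control, knockdown and induction were 30.6 and 41.7%, 45 and 48.6%, and 41.9 and 47.5% in pEx5. For Ndor1 in mEx5 they were 42.4 and 43.6%, 73.1 and 62.4%, and 58.1 and 56.2%. Its gain was 17.7 points, or 0.72 ± 0.15 (SE) on the logit scale (limma adjusted p = 0.00171), and both knockdown libraries exceeded both controls in each line. The other 3 tested short introns of Ndor1 were not called. Ilvbl held a further called intron among 4 tested, at 15.9 points (limma adjusted p = 0.00128), and Uckl1 a further one of 3 tested, at 10.2 points (limma adjusted p = 0.0389), a call lost in 7 of the 12 fits without a library, those without any 1 of the control and knockdown libraries except pEx5 knockdown A. Of the 5 tested introns of Ppp1r16a, which encodes a regulatory subunit of protein phosphatase 1, 2 were called, at 16.8 points (limma adjusted p = 0.00446) and 10.1 points (limma adjusted p = 0.0244), the second lost without mEx5 control A, mEx5 knockdown A, pEx5 control A or pEx5 knockdown B. Abca7, a lipid transporter gene with 11 tested introns, had an intron that gained, at 10.3 points (limma adjusted p = 0.000595), and another that lost, at -13.3 points (limma adjusted p = 0.0143). The Abca7 gain reached the mean PSI of 5% only through its knockdown libraries and was not called without mEx5 knockdown A, and the loss was not called without mEx5 control B, mEx5 knockdown A or pEx5 control B. The further introns of Ilvbl, Uckl1, Ppp1r16a and Abca7 were singled out after their values were seen. The 71 calls fell in 65 genes, and introns of 1 gene share its transcripts.

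**Figure D3:**
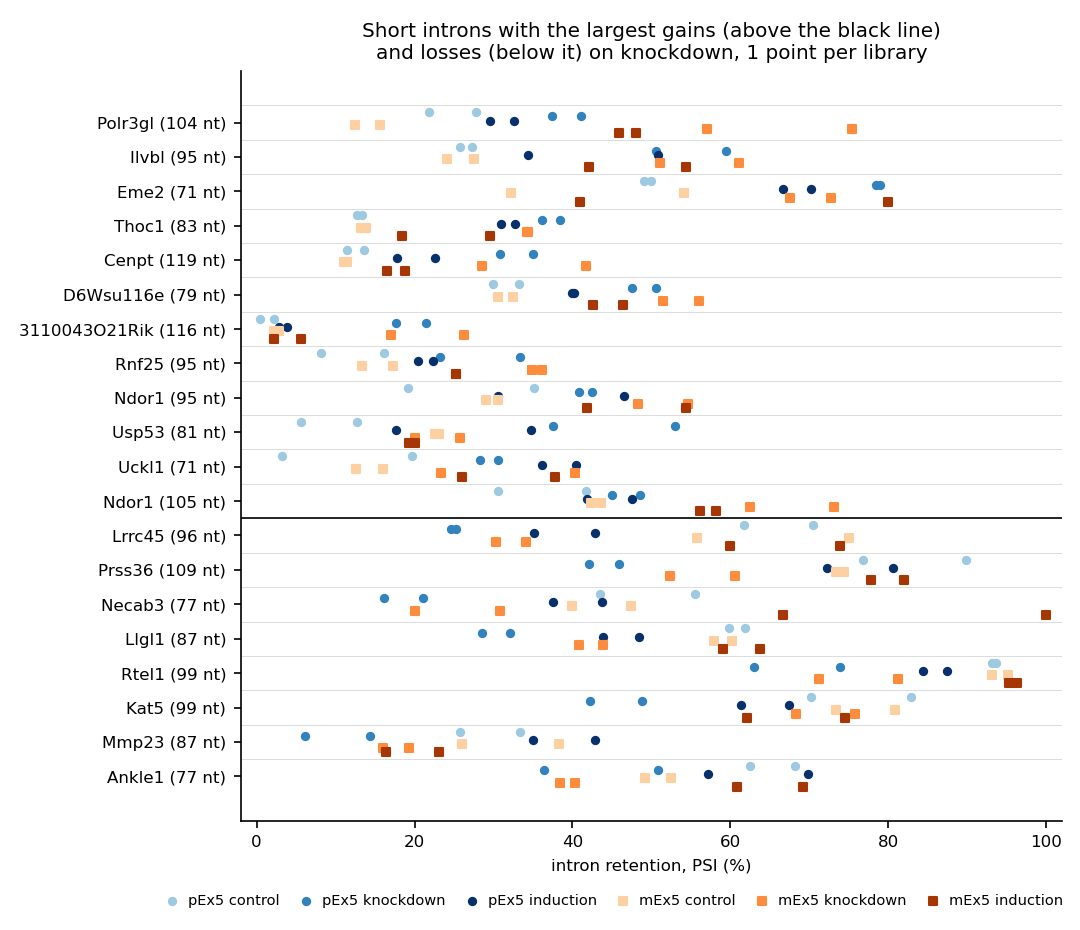
PSI in % (horizontal axis) of the 12 short introns with the largest gains (above the black line) and the 8 with the largest losses (below it) on knockdown, 1 point per library, circles for pEx5 and squares for mEx5, darker from control to knockdown to induction. In Polr3gl the mEx5 knockdown libraries reach 57.0 and 75.3%, and in Lrrc45 the control libraries, at 55.8 to 75%, stand clear of the knockdown libraries at 24.6 to 34.1%.

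The introns with a loss had a median control PSI of 31.3%, against 12.7% for those with a gain, a gap that the 10 points needed for a loss set in part. In the 96 nt intron of Lrrc45, a protein of the centrosome linker, pEx5 libraries had 70.5 and 61.7%, 25.2 and 24.6%, and 35.1 and 42.9% (control, knockdown, induction). Lrrc45 had 75 and 55.8%, 30.4 and 34.1%, and 60 and 73.9% in mEx5. All 4 knockdown libraries lay below all 4 controls, and the difference was -37.2 points, or -1.52 ± 0.20 (SE) on the logit scale (limma adjusted p = 4.68e-05). Prss36 encodes a serine protease, and in its 109 nt intron control, knockdown and induced libraries stood at 89.8 and 76.8%, 42.0 and 45.9%, and 80.7 and 72.2% in pEx5. Prss36 stood at 74.4 and 73.3%, 52.4 and 60.6%, and 82.0 and 77.8% in mEx5. Control and knockdown did not overlap, with a difference of -28.4 points, or -1.25 ± 0.22 (SE) on the logit scale (limma adjusted p = 0.000431). In Llgl1, a cell polarity gene, the PSI values for control, knockdown and induction were 59.9 and 61.9%, 28.5 and 32.0%, and 43.9 and 48.4% in pEx5. For Llgl1 in mEx5 they were 60.2 and 57.9%, 43.9 and 40.8%, and 63.8 and 59.1%. The 87 nt intron differed by -23.6 points, or -0.97 ± 0.11 (SE) on the logit scale (limma adjusted p = 7.17e-06), with unequal reads at its 2 edges (lowest p 1.56e-11 in the authors' deposited table). The 99 nt intron of Rtel1, a telomere helicase gene, was retained in most reads, and pEx5 libraries had 93.2 and 93.6%, 63.0 and 73.9%, and 84.4 and 87.4% (control, knockdown, induction). Rtel1 had 95.2 and 93.1%, 81.2 and 71.3%, and 95.3 and 96.2% in mEx5. It differed by -21.4 points, or -1.71 ± 0.18 (SE) on the logit scale (limma adjusted p = 3.91e-06), from 209 to 539 reads per library, and no knockdown library reached a control.

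Kat5, the acetyltransferase also known as Tip60, had its groups apart in pEx5, where control libraries stood at 82.9 and 70.2%, knockdown 48.9 and 42.2% and induction 67.4 and 61.4%. The mEx5 libraries of Kat5 had 80.8 and 73.4%, 75.8 and 68.3% and 74.5 and 62.2%, so that a knockdown library lay between the controls. The mean difference was -18.1 points, or -0.79 ± 0.18 (SE) on the logit scale (limma adjusted p = 0.00357), with unequal reads at the 2 edges (lowest p 3.69e-12 in the authors' deposited table). In the 87 nt intron of Mmp23, a membrane-anchored metalloprotease gene, control, knockdown and induced libraries stood at 25.8 and 33.3%, 6.17 and 14.3%, and 42.9 and 35.0% in pEx5. Mmp23 stood at 26.0 and 38.3%, 19.4 and 16.1%, and 16.4 and 23.1% in mEx5. Its loss of -16.9 points, or -0.95 ± 0.27 (SE) on the logit scale (limma adjusted p = 0.0148) rested on 16 to 56 reads and was not called without mEx5 control B or mEx5 knockdown B. Necab3, an EF-hand protein gene, had 11 to 33 reads, and the PSI values for control, knockdown and induction were 43.5 and 55.6%, 16.1 and 21.1%, and 43.8 and 37.5% in pEx5. For Necab3 in mEx5 they were 40 and 47.4%, 20 and 30.8%, and 100.0 and 66.7%. Its 77 nt intron differed by -24.6 points, or -1.03 ± 0.37 (SE) on the logit scale (limma adjusted p = 0.0485), a call that was lost in 10 of the 12 fits without a library, all but those without mEx5 induction A or B. Ankle1 encodes an ankyrin and LEM domain endonuclease, and in its 77 nt intron pEx5 libraries had 62.5 and 68.1%, 36.4 and 50.8%, and 57.1 and 69.8% (control, knockdown, induction). Ankle1 had 49.2 and 52.5%, 40.3 and 38.5%, and 69.2 and 60.8% in mEx5. It differed by -16.6 points, or -0.67 ± 0.21 (SE) on the logit scale (limma adjusted p = 0.0234), and was not called without mEx5 control B, mEx5 knockdown A, mEx5 knockdown B, pEx5 control B or pEx5 knockdown A. Of the 20 introns with the largest gains and losses, 14 were called in each of the 12 fits that left out a library, and the other 6 were those of Eme2, Usp53, Uckl1, Mmp23, Necab3 and Ankle1.

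Introns of 80 nt or less supplied 17 of the 71 calls, 11 higher and 6 lower among 467 tested. Of those not yet described, Dus3l, a dihydrouridine synthase gene for tRNA, had control against knockdown values of 8.80 and 10.5% against 18.6 and 24.5% in pEx5 and 11.3 and 9.05% against 24.6 and 19.3% in mEx5. Its 73 nt intron gained 11.9 points, or 0.93 ± 0.16 (SE) on the logit scale (limma adjusted p = 0.000389). The 72 nt intron of Pusl1, a pseudouridine synthase-like gene, went from 31.9 and 32.2% to 38.7 and 45.3% in pEx5 and 37.7 and 38.3% to 49.9 and 59.8% in mEx5, a gain of 13.4 points (limma adjusted p = 0.00184). For the 77 nt intron of Pnpla6, which encodes a phospholipase of nerve cells, control against knockdown was 4.29 and 5.15% against 15.3 and 23.3% in pEx5 and 4.55 and 2.91% against 17.1 and 17.8% in mEx5. Its gain was 14.2 points (limma adjusted p = 0.00666), and it was not called without mEx5 control B. Inpp5e, a phosphoinositide phosphatase of cilia, held the shortest called intron, of 64 nt, with control against knockdown at 7.32 and 14.6% against 22.9 and 26.8% in pEx5 and 11.3 and 10.4% against 15.4 and 30.5% in mEx5. It gained 13.0 points (limma adjusted p = 0.0155), a call lost without mEx5 control B, mEx5 knockdown B or pEx5 control A. Angptl6 gained 10.3 points (limma adjusted p = 0.00981) and Wdr90 14 points (limma adjusted p = 0.0496); the first was not called without mEx5 control B, mEx5 knockdown A, pEx5 control A or pEx5 knockdown B, and the second was called only in the fit without mEx5 knockdown B and in that with every library.

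Among the lower introns of 80 nt or less, that of Mib2, an E3 ligase of Notch signalling, had control against knockdown values of 32.7 and 38.8% against 15 and 18.2% in pEx5 and 24.4 and 30.7% against 20.3 and 21.5% in mEx5. The libraries of Mib2 did not overlap in either line, and the difference was -12.9 points, or -0.70 ± 0.15 (SE) on the logit scale (limma adjusted p = 0.00208). Tradd, the adaptor of the TNF receptor, had 37.4 and 12.9% against 6.91 and 9.18% in pEx5 and 22.5 and 25.2% against 14.8 and 10.2% in mEx5, a difference of -14.2 points (limma adjusted p = 0.00518) that was lost without pEx5 control A. The 69 nt intron of Ogfod2 differed by -15.0 points (limma adjusted p = 0.0201) and the 78 nt intron of Miip by -10.3 points (limma adjusted p = 0.0125), and the first was lost without mEx5 control A, mEx5 knockdown A, pEx5 control B or pEx5 knockdown A, and the second without mEx5 control A, mEx5 knockdown B, pEx5 control A or pEx5 knockdown B. By length, 9 introns were higher and 7 lower among 356 of 81 to 90 nt, 13 and 5 among 224 of 91 to 100 nt, 6 and 2 among 172 of 101 to 110 nt, and 8 and 4 among 133 of 111 to 120 nt. The shares called were 3.64, 4.49, 8.04, 4.65 and 9.02% from the shortest class to the longest, without a test between classes.

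Where a called short intron bordered a called exon, the pair moved in opposite directions. Of the 47 introns with a gain 19 bordered a tested exon and 10 a called one, and of the 24 with a loss 8 and 6, against 234 and 45 of the 1281 tested and not called. The 20 pairs of a called intron and a called bordering exon comprised 14 of a retained intron with a skipped exon and 6 of the reverse. In Cenpt the 91 nt exon changed by -34.3 points of inclusion where the intron gained 22.1, and in Thoc1 the 61 nt exon changed by -28.3 points beside an intron gain of 22.5. Tmpo, which encodes lamina-associated polypeptides, had an intron that rose from 6.94 and 8.33% to 21 and 26.1% in pEx5 and from 11 and 10.8% to 32.3 and 25.9% in mEx5, between exons that changed by -43.5 and -32.9 points. In Cenpi, another centromere gene, the intron went from 7.61 and 6.01% to 22.9 and 24.9% and from 5.90 and 7.04% to 22.0 and 25.7%, beside a 121 nt exon that changed by -25.2 points. The 119 nt intron of 2010012O05Rik, now Borcs7, of the lysosome-positioning BORC complex, rose from 2.65 and 2.01% to 15.9 and 14.3% and from 2.54 and 3.12% to 14.6 and 28.1%, between exons that changed by -38.5 and -27.0 points. Tmpo, Cenpi and 2010012O05Rik were chosen after their values were seen, as was Pigq. Among the losses, Lrrc45 bordered a 71 nt exon that gained 25.5 points, Pigq a 112 nt exon that gained 30.3 points, and Prss36 a 142 nt exon that gained 13.2 points. Retention of an intron and inclusion of its bordering exon are counted in part on the same exon-exon junction reads, so the pairs are not independent measurements. A shared read counts against retention and for inclusion of the exon, so opposite directions were favoured in advance. No count of such pairs for longer introns is set beside them. A pair in the same direction appeared at a threshold of 5 points, where 18 of 19 higher introns had opposite pairs, and without mEx5 control B (7 of 8), mEx5 knockdown B (10 of 11) or pEx5 control A (8 of 9).

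**Figure D4:**
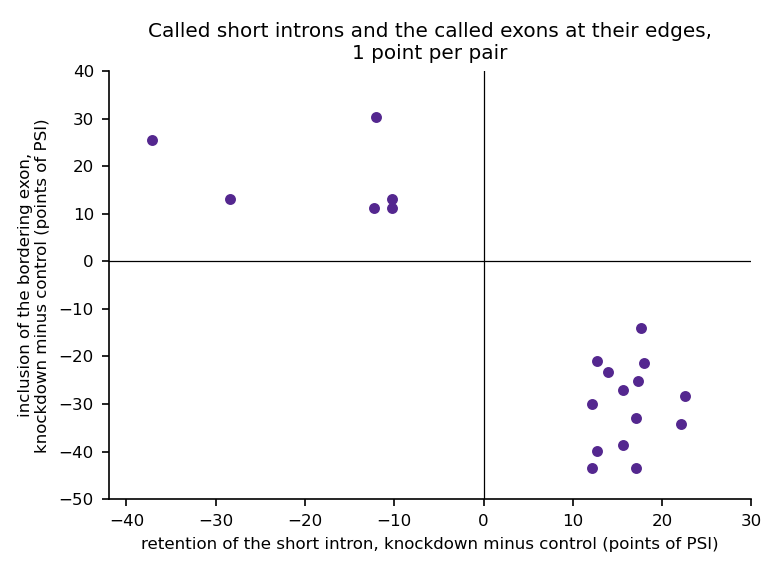
Change in retention of called short introns on knockdown (horizontal axis, points of PSI) against the change in inclusion of a called exon at their edge (vertical axis, points of PSI), 1 point for each of 20 pairs. All 14 pairs of introns with a gain lie in the lower right and all 6 pairs of introns with a loss in the upper left. Junction reads shared by intron and exon favour opposite directions in advance.

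Counts by starting level are a description, since the control PSI that sets the level is also subtracted in the change and the mean PSI of 5 to 95% limits which introns were tested. Of 761 tested short introns with a mean control PSI under 10%, 19 were higher on knockdown and 0 lower, a loss of 10 points being impossible at that level. From 10 to 30%, 19 were higher and 9 lower of 452; from 30 to 70%, 8 and 11 of 116; and above 70%, 1 and 4 of 23. Called shares were 2.50%, 6.19%, 16.4% and 21.7% over these levels, and among introns of over 120 nt they were 5.39%, 12.6%, 22.6% and 18.2%. The median of the lowest library was 64 reads for short and 61 for longer introns at the lowest level, 45.2 and 41.0 reads between 30 and 70%, and 90 and 43 reads above 70%. Whether the difference between short and longer introns at one level is larger than chance was not tested.

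Compared with knockdown, the PSI on induction was lower for 32 of the 47 gains in pEx5 and 40 in mEx5, and higher for 23 and 22 of the 24 losses. The 47 introns with a knockdown gain had a median PSI of 11.4% in pEx5 control, 27.0% in knockdown and 23.1% in induction, and of 13.0%, 29.8% and 20.4% in mEx5. The 24 introns with a loss had 32.7%, 18.1% and 34.3% in pEx5 and 34.7%, 21% and 43.8% in mEx5. These medians of groups hide where single introns stood. Against control, 46 of the 47 gains were still higher in pEx5 induction and 41 in mEx5 induction, with a median difference of 9.27 and 6.62 points. Of the 24 losses, 19 were still lower and 5 higher in pEx5 induction, with a median difference of -5.20 points, while 6 were lower and 18 higher in mEx5 induction, with a median of 3.55 points. Over all 1352 tested short introns, 65.4% were above control on pEx5 induction (median 1.50 points) and 81.9% on mEx5 induction (median 4.40 points). Above knockdown stood 69.2 and 73.4% of them. The counts of gains and losses are to be read beside this general rise. Both induced libraries lay above both controls for 38 of the 47 gains in pEx5 and 30 in mEx5. They lay below both controls for 10 of the 24 losses in pEx5 and 2 in mEx5. No count over all tested short introns was made to set beside these, so nothing is concluded from them. These values describe introns chosen on the same knockdown libraries and carry no test. Against knockdown, 4 of the 47 gains were called lower on pEx5 induction and 11 on mEx5 induction, and 7 and 14 of the 24 losses were called higher. These tests use the knockdown libraries that chose the introns, so a move back was favoured in advance. Neither these counts nor the p-values of single returns below are independent evidence of a return. Against control, 6 of the 47 gains were still called higher in each line, 2 of the 24 losses were still called lower in pEx5, and 1 loss was called higher than control in mEx5. 3110043O21Rik, which could be tested only because of its knockdown libraries, came back in both lines, by -16.2 points (limma adjusted p = 0.00651) in pEx5 and -17.7 points (limma adjusted p = 0.00855) in mEx5. Prss36 returned by 32.5 points (limma adjusted p = 0.0105) and 23.4 points (limma adjusted p = 0.0204), Llgl1 by 15.9 points (limma adjusted p = 0.0135) and 19.1 points (limma adjusted p = 0.00405), and Rtel1 by 17.4 points (limma adjusted p = 0.00676) and 19.6 points (limma adjusted p = 0.000966). Lrrc45 returned on mEx5 induction, by 34.7 points (limma adjusted p = 0.0107), while on pEx5 induction its 14.1 points (limma adjusted p = 0.209) was not called. The difference between the responses of Lrrc45 in the lines was not called either. The intron of Irak1, a kinase of Toll-like and interleukin-1 receptor signalling, fell by 17.5 points on mEx5 induction (limma adjusted p = 0.0126) and differed by 1.92 points (limma adjusted p = 0.903) on pEx5 induction, but the difference between these responses was not called. Of these returns, that of Rtel1 in mEx5 was called whichever library was left out. In pEx5 the call was lost without either induced library for 3110043O21Rik, without induction A, induction B or knockdown A for Prss36, and without induction B or knockdown A for Llgl1 and Rtel1. In mEx5 it was lost without induction A for 3110043O21Rik and Llgl1, induction A or knockdown A for Prss36, induction B or knockdown A for Lrrc45, and induction A or knockdown B for Irak1.

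Over all tested short introns, mEx5 induction against knockdown called 93 higher and 11 lower (background 10.4% of all events and 4.3% of introns over 120 nt, 2.5% higher and 1.8% lower). Of the 93, 4 reached the mean PSI of 5% only through the induced mEx5 libraries, those of Fcho1, Ipo4, Slc4a2 and Tinf2. On pEx5 induction 23 were higher and 6 lower (7.29% of all events and 2.62% of longer introns, 1.41% higher and 1.21% lower). The called share of short introns was 7.69% in mEx5 and 2.14% in pEx5, and limma without weights called 13 and 1 introns. Of the 23 and 93 introns called higher 13 were shared. In mEx5 the called introns included 25 higher of 467 at 80 nt or less, 25 of 356 at 81 to 90 nt and 18 of 224 at 91 to 100 nt. At 101 to 110 nt 8 of 172 were higher, and at 111 to 120 nt 17 of 133. Shares called in either direction were 5.35, 7.02, 10.7, 4.65 and 16.5% from the shortest class to the longest, without a test between classes. The number of calls fell to 55 without mEx5 induction A, 51 without mEx5 knockdown A and 52 without mEx5 knockdown B; in pEx5 it fell to 14 without induction A, 10 without induction B, 13 without knockdown A and 16 without knockdown B.

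Against control, mEx5 induction left 32 short introns higher and 0 lower, a background of 1.4% of all events and 1.01% of longer introns (0.932% higher and 0.0799% lower) against 2.37% of the short introns. The differences ran from 10.3 to 37.4 points, and the median over all tested short introns was 4.40 points against 2.42 points over longer introns. In the 118 nt intron of Fibp, an intracellular binding protein of acidic fibroblast growth factor, control, knockdown and induced libraries stood at 22.5 and 21.9%, 10.3 and 19.5%, and 37.5 and 26.3% in pEx5. Fibp stood at 20 and 27.3%, 7.32 and 10.4%, and 65.5 and 56.5% in mEx5. The induced mEx5 libraries stood above every other library, by 37.4 points, or 1.63 ± 0.36 (SE) on the logit scale (limma adjusted p = 0.0304) over control. In Lrdd, now Pidd1, a p53-induced death domain gene, the PSI values for control, knockdown and induction were 6.35 and 9.68%, 6.42 and 9.33%, and 5.41 and 6.52% in pEx5. For Lrdd in mEx5 they were 6.45 and 5.26%, 4.88 and 5.62%, and 35.0 and 37.9%. Its 87 nt intron was low in 10 libraries and high in the 2 induced mEx5 libraries, 30.6 points, or 2.08 ± 0.44 (SE) on the logit scale (limma adjusted p = 0.026) above control. Map4k2, a kinase of the MAP kinase cascade, differed from control by 30.5 points (limma adjusted p = 0.048), but its knockdown libraries in mEx5 were at 53.3 and 67.3%, overlapping the induced ones at 62.3 and 76.4% and above the controls at 38.9 and 38.9%. Polr3gl remained 32.9 points (limma adjusted p = 0.0373) above control. Of the 32 introns 6 were also among the 47 gains on knockdown. At matched control levels, 1.45% of short introns against 0.459% of longer introns were called under 10%, 3.54% against 1.76% from 10 to 30%, 4.31% against 2.18% from 30 to 70%, and 0 of 23 against 0.552% above. Limma without weights called 0 short introns here. The count depended on single libraries: without mEx5 control A 3 short introns were called, without control B 1, without induction A 10 and without induction B 7. Fibp and Lrdd lost their call without any 1 of the 4 mEx5 control and induced libraries, Polr3gl also without pEx5 induction A or B or pEx5 knockdown A or B, and Map4k2 without any library except mEx5 knockdown A or B.

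**Figure D5:**
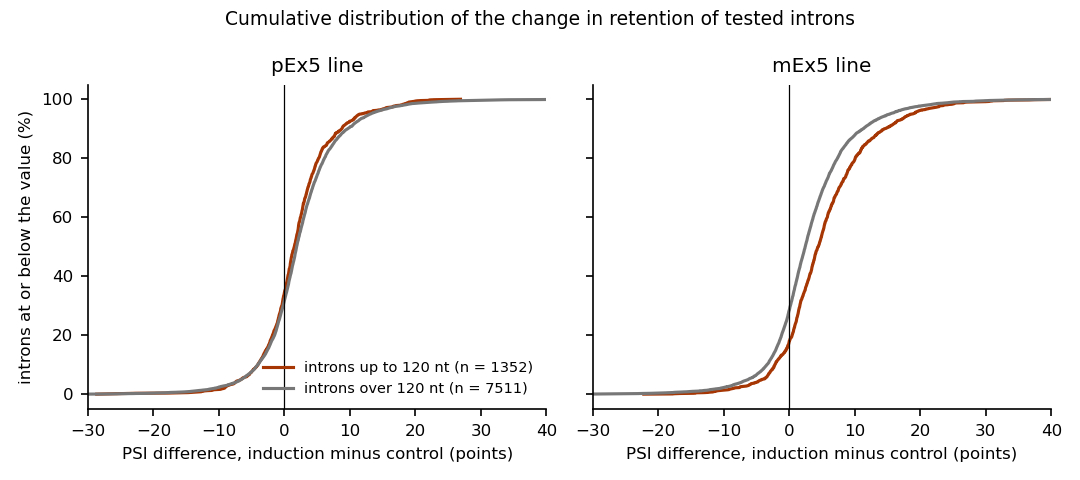
Cumulative percentage of tested introns (vertical axis) at or below a given PSI difference between induction and control (horizontal axis, points), for the 1352 short introns (brown) and the 7511 longer introns (grey). In pEx5 the curves run close together, and in mEx5 the short introns lie to the right, with a median of 4.40 points against 2.42 for longer introns.

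pEx5 induction against control called 19 short introns higher and 2 lower (background 3.37% of all events and 1.89% of longer introns, 1.72% higher and 0.173% lower, against 1.55% of short introns). Limma without weights called 0 of them, and the median difference over short introns was 1.50 points. Ccdc84, which encodes the CENATAC subunit of the minor spliceosome, was higher in both lines: in its 114 nt intron pEx5 libraries had 35.5 and 31.1%, 41.1 and 35.8%, and 57.1 and 59.4% (control, knockdown, induction). Ccdc84 had 38.7 and 34.0%, 45.1 and 39.3%, and 62.7 and 60.7% in mEx5. The induced libraries lay above all 8 others, by 24.9 points, or 1.02 ± 0.16 (SE) on the logit scale (limma adjusted p = 0.00204) in pEx5 and 25.3 points, or 1.04 ± 0.16 (SE) on the logit scale (limma adjusted p = 0.00555) in mEx5, and the mEx5 call was lost without mEx5 control B. On knockdown the same intron differed by 5.46 points (limma adjusted p = 0.161), under the 10 points of a call. It was 1 of 2 introns that both lines shared among their 19 and 32 called higher. In Irak1 control, knockdown and induced libraries stood at 5.11 and 7.53%, 17.4 and 29.4%, and 27.4 and 23.2% in pEx5. Irak1 stood at 8.19 and 8.06%, 22.8 and 29.9%, and 6.92 and 10.7% in mEx5. The induced pEx5 libraries of Irak1 lay within the range of the knockdown libraries and 19.0 points (limma adjusted p = 0.00578) above control, a call lost without pEx5 control A or pEx5 induction A. Thoc1 was 18.8 points (limma adjusted p = 0.00171) above control, and the 67 nt intron of Ndor1 19.6 points (limma adjusted p = 0.0372). Lrrc45 stayed below control, at -27.1 points (limma adjusted p = 0.0354). Lrrc45 and the Ndor1 intron lost these calls without any 1 of the 4 pEx5 control and induced libraries, and the count of calls fell to 6 without pEx5 control A, 10 without control B, 11 without induction A and 9 without induction B.

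Between the induced lines 35 short introns were lower in pEx5 than in mEx5 and 3 were higher (background 2.85% of all events and 1.01% of introns over 120 nt, 0.652% lower and 0.359% higher, against 2.81% of short introns). Line and isoform cannot be told apart from this comparison alone. Limma without weights called 2 short introns here, and the median difference over short introns was -3.41 points. In the 74 nt intron of Ltk, a receptor tyrosine kinase gene, the PSI values for control, knockdown and induction were 21.4 and 29.0%, 31.6 and 23.1%, and 15.8 and 18.2% in pEx5. For Ltk in mEx5 they were 51.4 and 21.1%, 40 and 35.1%, and 50 and 63.6%. The induced lines differed by -39.8 points, or -1.78 ± 0.42 (SE) on the logit scale (limma adjusted p = 0.0286), though the mEx5 controls were themselves far apart. Stx4a encodes a syntaxin of the plasma membrane, and in its 83 nt intron, annotated in the 3′ UTR, pEx5 libraries had 34.6 and 32.0%, 33.9 and 28.8%, and 20.4 and 27.4% (control, knockdown, induction). Stx4a had 37.6 and 25.8%, 24.0 and 18.2%, and 55.8 and 52.6% in mEx5. The difference of the induced lines was -30.3 points, or -1.30 ± 0.29 (SE) on the logit scale (limma adjusted p = 0.0194), with the mEx5 libraries above all others. In Dgkq, a diacylglycerol kinase gene, control, knockdown and induced libraries stood at 19.1 and 21.7%, 12.9 and 19.1%, and 8.20 and 13.0% in pEx5. Dgkq stood at 33.3 and 25.7%, 17.9 and 8.86%, and 44.7 and 36.8% in mEx5. Its 110 nt intron differed by -30.1 points, or -1.65 ± 0.41 (SE) on the logit scale (limma adjusted p = 0.0393). In the 77 nt intron of Plxna3, a receptor for semaphorins, the PSI values for control, knockdown and induction were 19.7 and 16.7%, 12.1 and 10.2%, and 18 and 23.6% in pEx5. For Plxna3 in mEx5 they were 19.1 and 23.4%, 28.4 and 20.5%, and 45.5 and 45.5%, from 89 to 182 reads. Here the induced mEx5 libraries stood above the other 10. Induced pEx5 minus induced mEx5 was -24.6 points, or -1.14 ± 0.23 (SE) on the logit scale (limma adjusted p = 0.0123) for Plxna3, and for Lrdd -30.5 points (limma adjusted p = 0.0141).

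Of the 35 introns lower in pEx5 27 were also called higher on mEx5 induction against knockdown and 10 against control; these comparisons share the induced mEx5 libraries. Those of Fam38a, Ipo4 and Tinf2, 3 of the 35, reached the mean PSI of 5% only through the induced mEx5 libraries. The 3 introns that were higher in induced pEx5 were those of Irak1, Hnrnph1 and Zfp644, named here after their values were seen, at 16.5, 11.1 and 14.2 points. All 3 had gained on knockdown. The difference between induced lines was called for Hnrnph1 whichever library was left out, but not for Irak1 without any 1 of the 4 induced libraries or the 2 mEx5 controls, nor for Zfp644 without mEx5 induction A or either induced pEx5 library. In the 91 nt intron of Hnrnph1, which encodes an hnRNP that binds G-rich RNA, pEx5 libraries had 9.48 and 10.2%, 24.5 and 24.4%, and 24.4 and 25% (control, knockdown, induction). Hnrnph1 had 7.92 and 10.1%, 22.6 and 27.0%, and 13.3 and 14% in mEx5. Its induced pEx5 libraries stood at the level of knockdown, and its induced mEx5 libraries lay between control and knockdown. Each of the 5 introns with the largest difference between induced lines lost its call without any 1 of the 4 induced libraries, and Dgkq also without pEx5 control A or B. The count fell to 9 without mEx5 induction A, 17 without mEx5 induction B, 5 without pEx5 induction A and 8 without pEx5 induction B.

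Between the control lines no short intron was called by limma, against 0.0351% of all events and 0.0% of longer introns, with 60 of 1352 at an unadjusted p under 0.05 and none called by limma without weights. No short intron was called for a difference between the lines in their response to knockdown (background 0.0%; 47 at an unadjusted p under 0.05 and none by limma without weights). The same held for the response to induction against knockdown (background 0.272% of all events and 0.0266% of longer introns; 82 at an unadjusted p under 0.05 and none by limma without weights), except that 1 was called without mEx5 induction A. A larger effect of one cDNA than of the other, relative to knockdown, was therefore called for no short intron with every library in the fit.

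The introns with the highest control retention were scarcely spliced in any group. The 78 nt intron of Dmpk, the kinase gene of myotonic dystrophy, had a PSI of 95.3% in pEx5 knockdown A, 93.1% in pEx5 induction A and 100.0% in the other 10 libraries, from 24 to 65 reads. The 72 nt intron of Ncrna00085, now Spaca6, a sperm protein gene, was at 100.0% in 11 libraries and at 91.2% in the remaining one. Pygo2, a Wnt pathway gene, had a 108 nt intron in its annotated 5′ UTR that was at 100.0% in all 12 libraries, from 41 to 73 reads. Aplf, a DNA break repair gene, ranged from 93.8 to 100.0%, and Bicd2, an adaptor of dynein, from 95.5 to 100.0%. None of these 5 could be tested, having a mean PSI of over 95%. The shortest intron of all, 33 nt in the myosin gene Myo9b, ranged from 92.3 to 100.0%, with very unequal reads at its edges (lowest p 1.5e-37 in the authors' deposited table). At 56 nt, an intron of Hnrnph1 was spliced almost fully, with 0.49 to 1.12% from 1751 to 3795 reads. At 57 nt, an intron in the annotated 5′ UTR of Gcdh, a mitochondrial dehydrogenase gene, had 58.0 to 83.5% and differed on knockdown by 0.32 points (limma adjusted p = 0.962), not called.

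Calls on knockdown by gene family are set beside the 5.25% of all tested short introns, and no family was compared with the rest. Of 22 in cytosolic ribosomal protein genes 8 could be tested and 1 was called, that of Rpl41, in which control, knockdown and induced libraries stood at 50.1 and 50.3%, 65.1 and 64.4%, and 53.2 and 53.1% in pEx5. Rpl41 stood at 47.6 and 47.7%, 61.4 and 59.0%, and 45.8 and 47.8% in mEx5. This 114 nt intron of the annotated 5′ UTR gained 13.5 points, or 0.55 ± 0.06 (SE) on the logit scale (limma adjusted p = 5.01e-06) from 12105 to 35762 reads, the deepest of those named, with strongly unequal reads at its edges (lowest p 1.71e-185 in the authors' deposited table). On knockdown limma called none of 5 tested introns of mitochondrial ribosomal proteins, 9 of tRNA synthetases, 2 of CLK and SRPK kinases, 2 of proteasome subunits, 1 of translation initiation factors and 1 of tubulins. At an unadjusted p under 0.05 stood 1, 3, 1, 0, 0 and 0 of these, and limma without weights called none. On mEx5 induction against control, 1 of the CLK and SRPK introns and 1 of the proteasome introns were called higher. On knockdown, of 4 tested introns of hnRNP genes 1 was higher and 1 lower, of 7 in RNA polymerase subunits 1 was higher, of 19 in ubiquitin ligases and proteases 2 were higher, of 16 in zinc finger genes 1 was higher, and of 29 in solute carriers 1 was lower. The zinc finger call was that of Zfp644, in which the PSI values for control, knockdown and induction were 52.5 and 59.1%, 72.0 and 72.8%, and 74.7 and 74.3% in pEx5. For Zfp644 in mEx5 they were 57.7 and 61.1%, 73.4 and 71.9%, and 56.9 and 63.9%. The gain of its 93 nt intron was 14.9 points, or 0.66 ± 0.11 (SE) on the logit scale (limma adjusted p = 0.000235), and the induced pEx5 libraries stayed at the level of knockdown. The hnRNP gain was the 91 nt intron of Hnrnph1, at 15.2 points, or 1.14 ± 0.08 (SE) on the logit scale (limma adjusted p = 1.55e-07). The largest differences in other families were not called: Mars, a methionyl-tRNA synthetase gene now named Mars1, at -15.5 points (limma adjusted p = 0.0719), Slc26a10, an anion transporter family gene, at -15.5 points (limma adjusted p = 0.216), and Mrpl52 at 3.18 points (limma adjusted p = 0.00438), which passed the p threshold but not the 10 points. No short intron could be tested in SR protein (6 introns), chaperonin (12), coatomer (9), kinesin and dynein or dynactin (72), and mitochondrial complex (25) genes, whose median mean PSI was 0.16 to 0.47%.

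Expression was given by the authors as a value per gene and group, without libraries. In the authors' deposited table, 19 of the 41 host genes of introns that gained on knockdown with a fold change were lower on knockdown in both lines at an adjusted p under 0.05, and 3 were higher. That is 46.3% lower, against 13.7% of all 18600 genes with a fold change in the authors' deposited table, 24.3% of the hosts of all short introns and 17.6% of the hosts of tested introns that were not called. Of the 24 hosts of introns with a loss 2 were lower and 6 higher in the authors' deposited table, 25% against 10.1% of all genes. These shares are descriptions, and reads of retained and of spliced transcripts are not separated in a gene's level. Of 49 genes of intron recognition and RNA decay, 48 had a fold change in the authors' deposited table, and 18 were lower and 4 higher on knockdown in both lines. The polypyrimidine tract protein Ptbp2 was lower by log2 fold changes of -1.81 in pEx5 and -1.60 in mEx5, the tract-binding Hnrnpc by -0.52 and -0.50, the branch-point protein Sf1 by -0.53 and -0.48 and U2af2 by -0.31 and -0.34, in the authors' deposited table. Ddx46, a helicase of U2 snRNP assembly, was higher by 0.79 and 0.87 on knockdown and changed by -1.08 on mEx5 induction against knockdown in the authors' deposited table, and Smg6, the endonuclease of nonsense-mediated decay, was higher by 0.66 and 0.76. The part of these levels in the retention of short introns was not tested.

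Features that the choice of introns did not use were described over 7335 short introns matched to GENCODE M21, of which 1396 had a sequence, 1388 with GT and AG ends and 8 with GC and AG ends. An annotated exon ran through the whole intron in 63.0% of the 46 matched introns that gained, 59.1% of the 22 matched that lost, 48.2% of those tested and not called and 13.3% of those not tested. The median GC content was 53.3% in introns that gained, 61.1% in introns that lost and 58.3% in those not called, over 29, 13 and 537 sequences. T made up a median of 35.7% of the 28 bases before the AG in gained, 25% in lost and 28.6% in uncalled introns, while pyrimidines made up 71.4%, 71.4% and 67.9%. The last intron of its transcript was 10.9% of gained, 27.3% of lost and 10.0% of uncalled introns. Length was divisible by 3 in 25.5% of the gained, 50% of the lost and 31.3% of the uncalled. Unequal reads at the 2 edges in at least 1 library were given for 18 of 47, 6 of 24 and 31.7% of the uncalled. These shares and medians carry no test, and the sequences cover only introns spanned by an annotated exon.

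The authors' own calls, whose criterion is not given in the sources used here, covered short introns with little retention as well. In pEx5 knockdown 141 short introns (1.70%) and in mEx5 knockdown 96 (1.15%) were marked as changed by the authors' deposited table, against 1.48 and 1.24% of longer introns. On induction against knockdown the authors' deposited table marked 99 (1.19%) in pEx5 and 207 (2.49%) in mEx5, against 0.714 and 0.956% of longer introns. Between the induced lines it marked 151 (1.82%, against 0.504%), between the knockdown lines 42 (0.505%, against 0.251%) and between the control lines 16 (0.192%, against 0.164%), again in the authors' deposited table. Of the 71 introns called here on knockdown 61 were marked for at least 1 knockdown comparison in the authors' deposited table.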

How the data were processed

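Per the labels, 12 stranded libraries of polyadenylated RNA were sequenced. The deposited splicing table gives percent spliced in (PSI, a percentage), which per the file headers and values also lists, per event, its corrected reads for inclusion and for exclusion, with, for introns, a p for unequal reads at the 2 edges; 100.0% of the PSI values of short introns lay within 0.05 points of the percentage from those reads. A further table deposited by the authors holds a group PSI score (up to slightly over 100, so called a score here) with their True or False calls. The authors' deposited expression table holds RPKM per gene and group, with log2 fold changes, p-values and FDR by the authors; the submitters' processing notes name Salmon 0.14.1, edgeR and mm10. The assembly of the splicing table is not given in the sources used here, and 273 of 7335 matched introns had the same position in GRCm38, so sequences carry GRCm38 positions from a match by gene, strand and exact length to exactly 1 annotated intron, with the same offset as a near match.

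Differences were tested with limma 3.58.1 (R 4.3.3) after a logit transform of inclusion against exclusion reads, with a pseudocount of 0.5 reads, weighted by 1 over the sum of 0.01 and the reciprocals of both read numbers, with 1 coefficient per group over all 12 libraries. It ran on the 22770 events with at least 10 reads in each library and a mean PSI of 5 to 95, with Benjamini-Hochberg adjustment over all of them; calls required 10 or more points of PSI beside an adjusted p under 0.05. A PSI difference is the difference of group means and for both lines the mean of the 2 lines. On simulated data of 22467 events the test of knockdown in both lines recovered 5, 34, 39 and 41 of 50 simulated differences of 10, 15, 20 and 30 points, while 1 call fell among 22267 events without a simulated difference. In pEx5 alone it recovered 3, 18, 26 and 36 of 50. The simulated errors followed the variance model of the test's own weights, and a far smaller part of the events changed than was called in the data. A simulated difference of 10 points had also to reach the 10 points of a call. These figures therefore describe the simulation and not the rate of false or missed calls in the real libraries.

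The introns, the gene lists and the weighted test were chosen with earlier results of these data known. Named were the 12 largest gains and 8 largest losses called on knockdown with the same sign in both lines, the 5 introns with the highest control PSI, up to 5 called for each of the induced lines against each other and induction against control in each line, the 3 shortest, all called on knockdown of 80 nt or less, and the largest knockdown difference in each gene family with at least 3 tested introns. The letters A and B did not pair the libraries: correlations of the A minus B difference between groups ran from -0.015 to 0.015 over 15 pairs of groups. Alternatives were an unweighted fit over every event with enough reads whatever its PSI, another pseudocount, read minimum, variance floor, PSI range and difference threshold, introns with equal edges, PSI from summed reads, a replicate block and leaving out each library. The level of 1 marker is not reported here.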

Additional observations from a re-analysis of the deposited data

Results flagged for a closer look

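In 9 of the 55 named introns every induced library moved one way in pEx5 and the other way in mEx5, relative to knockdown or control. With 2 libraries a group such patterns also arise without any effect, and no share over all tested short introns was counted beside them. Ltk, Stx4a and Dgkq were named because their induced lines differed, so opposite moves were favoured in advance. Nothing is concluded from the number of these introns. The difference between the lines was not tested against control; against knockdown it was tested as an interaction and called for no short intron. Values are given as the change in pEx5 minus the change in mEx5, in points of PSI.

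Against control, Usp53 differed by 20.2 points (17 in pEx5 and -3.18 in mEx5), Mmp23 by 21.8 (9.36 and -12.4) and Wdr90 by 23.4 (22.1 and -1.27), all higher in pEx5. In the opposite direction stood Stx4a at -31.9 points (-9.36 and 22.5), Dgkq at -21 (-9.78 and 11.2), Mib2 at -21.9 (-8.41 and 13.5) and Rtel1 at -9.15 (-7.51 and 1.64). Against knockdown, Stx4a differed by -40.6 points (-7.45 in pEx5 and 33.1 in mEx5), Ltk by -29.6 (-10.3 and 19.3) and Zfp644 by 14.4 (2.09 and -12.3). Usp53, Wdr90 and Mmp23 rest on few reads, with 16 to 56 per library across the 3 introns.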

How the results depend on the processing

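No called PSI difference of a named intron changed sign under the alternatives run, but limma without weights lost 33 of the 50 calls of named introns. That fit also ran over every event with enough reads whatever its PSI. Weights and tested events changed together, so the losses cannot be put down to the weights alone. Limma without weights called 36 short introns on knockdown in both lines, 18 in pEx5 and 9 in mEx5, 1 and 13 on induction against knockdown in pEx5 and mEx5, 0 and 0 on induction against control, and 2 between the induced lines; the cause was not tested. A variance floor of 0.05 gave 11 for mEx5 induction against control. A threshold of 5 points gave 147 for knockdown in both lines, 93 in pEx5 and 37 for pEx5 induction against control. A threshold of 15 points gave 30, 24 and 29 for knockdown in both lines, pEx5 and mEx5, 13 and 65 for induction against knockdown, 10 and 18 for induction against control and 17 between the induced lines. Without introns of unequal edge reads, which left 922 tested, the counts were 47, 35 and 28 for knockdown, 18 for pEx5 induction against knockdown, and 12 and 19 for induction against control. Leaving out each library gave 55 to 71 calls for knockdown in both lines, 37 to 57 in pEx5 and 28 to 47 in mEx5, 10 to 31 and 51 to 99 for induction against knockdown in pEx5 and mEx5, 6 to 24 and 1 to 29 for induction against control, 5 to 36 between the induced lines and 0 to 1 for the difference of the induction change; the control lines and the difference of the knockdown change stayed at 0. The knockdown count in mEx5 was 30 without mEx5 control A, 30 without mEx5 control B and 28 without mEx5 knockdown A. With a replicate block, fitted although the letters did not pair the libraries, the counts were 67, 54 and 45 for knockdown in both lines, pEx5 and mEx5, 31 and 104 for induction against knockdown, 20 and 31 for induction against control and 38 between the induced lines. Of the 50 calls of named introns 28 were lost without at least 1 library. With 2 libraries a group and a median of 158 reads per intron and library, differences near 10 points are at the limit of the test.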
